A study of Mus musculus with 6 samples.

Results

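The genes described here are the cytokines, the tumour necrosis factor (TNF) superfamily ligands and the cytokine receptors expressed in BV2, an immortalised line of mouse microglia, with and without knockdown of Gch1. They were chosen by name: every protein-coding gene of the expression table whose symbol is Tnf, Lif, Osm, Tgfb1, Tgfbr1, Tgfbr2, Ifnar1, Ifnar2, Ifngr1 or Ifngr2, or begins with Tnfsf, Tnfrsf, or with Il or Csf and a digit. The rule found 58 of the 12327 genes in the table, made up of 16 ligands, 40 receptor chains and 2 secreted inhibitors. RNA was sequenced from 3 knockdown libraries (genotype label GCH1-KD), made 48 hours after infection with an adenovirus that delivers a short hairpin RNA against GCH1 (Ad-shGCH1), and from 3 control libraries (genotype label negative control, Ad-NC), each of ribosome-depleted total RNA. All cells are of 1 subline grown in high-glucose medium with fetal serum, with no inflammatory stimulus named in the labels. The series text calls the controls wild type, so whether they carried a control virus is unclear, and an effect of the virus cannot be told apart from one of the hairpin. Nothing in the labels says that the libraries of a group come from separate cultures, so p-values cover only the spread among the libraries sequenced, and this may be technical.

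Cytokines are secreted or membrane-bound signals that cells read through paired receptor chains. Interleukin, interferon and colony stimulating factor receptors of the haematopoietin and interferon classes signal through JAK kinases and STAT transcription factors, TNF receptors through TRAF adaptors and NF-kB, and transforming growth factor beta (TGF-beta) receptors through SMAD proteins. Microglia, the resident macrophages of the brain, depend on the receptor CSF1R and its ligands CSF1 and IL-34 for survival, release TNF and IL-1 on activation, and need TGF-beta for their resting identity. GCH1, GTP cyclohydrolase I, opens the synthesis of tetrahydrobiopterin, the cofactor of nitric oxide synthases.

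Values are treated as FPKM, fragments per kilobase of transcript scaled to library depth, which are adjusted for gene length and can be compared between genes. Gch1 was at 6.89, 7.22 and 7.23 FPKM in control and 3.20, 2.93 and 3.43 FPKM in the knockdown libraries, 44.8% of control (log2 -0.96, SE 0.06; limma Benjamini-Hochberg adjusted p = 0.00542), in the direction of the labels in every library. Estimated sequencing depth was 5.25 to 5.58 gigabases (Gb) in the controls and 6.32 to 7.61 Gb in the knockdown libraries, with no overlap, and its part in the results was not tested. In bulk RNA, a change in the make-up of the cells and in the RNA per cell cannot be told apart. Of 13 markers of microglia and macrophages, 12 were in the table (summed level 1034 to 1058 FPKM in control against 984 to 1043 FPKM with the knockdown) and P2ry12 was not. Cd68 and Tyrobp, with control means of 486 and 264.6 FPKM, made up most of this sum. Of the 12 markers, 8 were below control, against 47% of all genes tested. Cd68 was at 94.0% of control and Trem2 at 97.5%, both without overlap, as were 8.36% of all genes tested in that direction. Aif1 was at 127.2% with overlapping groups. Among the 12 markers, Cx3cr1 ranged from 0.30 to 3.16 FPKM and Itgam from 7.22 to 31.2 FPKM within the controls alone. The part of this spread in the results was not tested. None of the listed markers of astrocytes, oligodendrocytes, neurons, T cells, endothelial cells or fibroblasts had a row in the table.

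The members ranged from the lower limit of the table to well above its median. Their mean over the 6 libraries ran from 0.547 FPKM for Lif to 56.8 FPKM for Tnf, with a median of 7.47 FPKM, against 6.43 FPKM over the 12222 genes tested. At 30 FPKM or more were 10 members: the ligands Tnf, Tnfsf9 (4-1BB ligand), Tgfb1 and Csf1, and the receptor chains Csf1r, Tnfrsf1b, Csf2ra, Csf2rb, Il2rg and Ifngr2. Another 13 members were under 2 FPKM. From the estimated depth, these levels correspond to a mean read coverage of 3.2-fold for Lif in the controls to 363-fold for Csf1r in the knockdown libraries. The median coefficient of variation of the members within a group was 6.46% in the controls and 5.97% after knockdown, close to that of all genes tested (6.38% and 5.52%). GENCODE M21 holds 132 protein-coding genes that the rule names, and the other 74, among them Il1b, Il6, Il10, Il12b, Il1r1 and Tnfsf10, have no row in the table and were not analysed here. Every gene in the table reached a mean of 0.501 FPKM or more in at least 1 group.

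**Figure D1:**
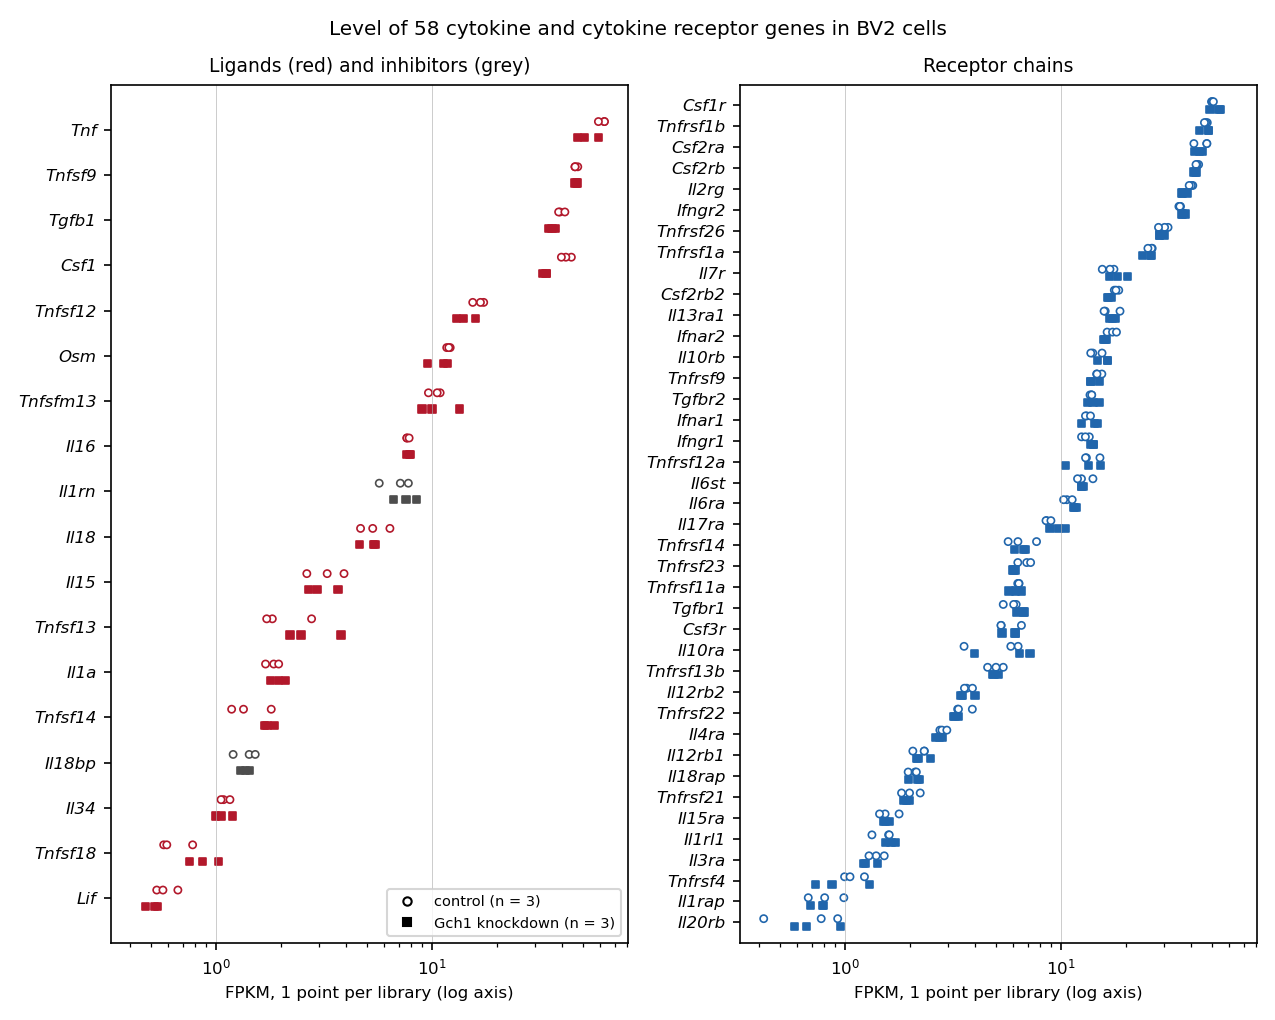
Level of each of the 58 members in each library, as FPKM on a log axis, with ligands in red, inhibitors in grey and receptor chains in blue; open circles are the 3 controls and filled squares the 3 knockdown libraries. Tnf led the ligands and Csf1r the receptor chains, and for most genes the ranges of circles and squares overlap.

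Below Tnf, the order of the most abundant members was partly within their spread. In the controls Csf1r (50.1 ± 0.50 FPKM), Tnfrsf1b (46.7 ± 0.71), Tnfsf9 (46.3 ± 0.79) and Csf2ra (45.2 ± 3.5; SD, n = 3 each) followed Tnf (61.4 ± 2.2), and Tnfrsf1b, Tnfsf9 and Csf2ra did not differ beyond their spread. Csf1r, the receptor for CSF1 and IL-34, was at 49.6, 49.9 and 50.6 FPKM in the controls. Its 2 ligands differed widely in level: Csf1 was at 41.8 ± 2.2 FPKM and Il34 at 1.10 ± 0.05 FPKM in the controls (SD, n = 3 each). Of the TNF receptors, Tnfrsf1b (TNFR2) was above Tnfrsf1a (TNFR1, 25.9 ± 0.64 FPKM) in each of the 6 libraries.

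In the comparison of knockdown with control, 0 of the 58 members passed a Benjamini-Hochberg (BH) adjusted p of 0.05 in limma's moderated test on log2(FPKM + 1), where 10 of all 12222 genes tested (0.0818%) did. The smallest adjusted p of a member was 0.156, for Csf1. At an unadjusted p under 0.05, 7 members (12.1%) were lower, against 4.82% of all genes, and 0 members were higher, against 6.47%. These 7 were the ligands Csf1, Tnf, Tgfb1 and Tnfsf12 and the receptor chains Il2rg, Csf2rb2 and Tnfrsf23. Below control were 32 of 58 members (55.2%), against 47% of all genes, and the median log2 fold change (knockdown minus control) was -0.01 for the members and 0.01 for all genes. In 7 members (12.1%) all 3 knockdown libraries were below all 3 controls, against 8.36% of all genes, and in 4 members (6.9%) all 3 were above, against 9.99%. The 7 below were Csf1, Tnf, Tgfb1, Il2rg, Csf2rb2, Tnfrsf23 and Ifnar2, and the 4 above were Ifngr1, Ifngr2, Il6ra and Tgfbr1.

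The 95% intervals were narrow for most members, as they were over all genes. The 95% interval of the fold change lay within 1.25-fold in either direction for 45 of 58 members (77.6%), against 76.4% of all genes, and within 1.5-fold for 56 (96.6%), against 95.2%. The 2 members with wider intervals were Tnfsf13 (-0.13 to 0.72) and Il10ra (-0.42 to 0.68 on the log2 scale). The pseudocount of 1 shrinks the fold changes of weak genes, and with a pseudocount of 0.1 the interval lay within 1.5-fold for 52 members. An adjusted p above 0.05 does not show that a gene is equal in the 2 groups. Like the p-values, the intervals cover only the spread among the libraries sequenced, which may be technical. They do not bound the change that separate cultures would show.

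**Figure D2:**
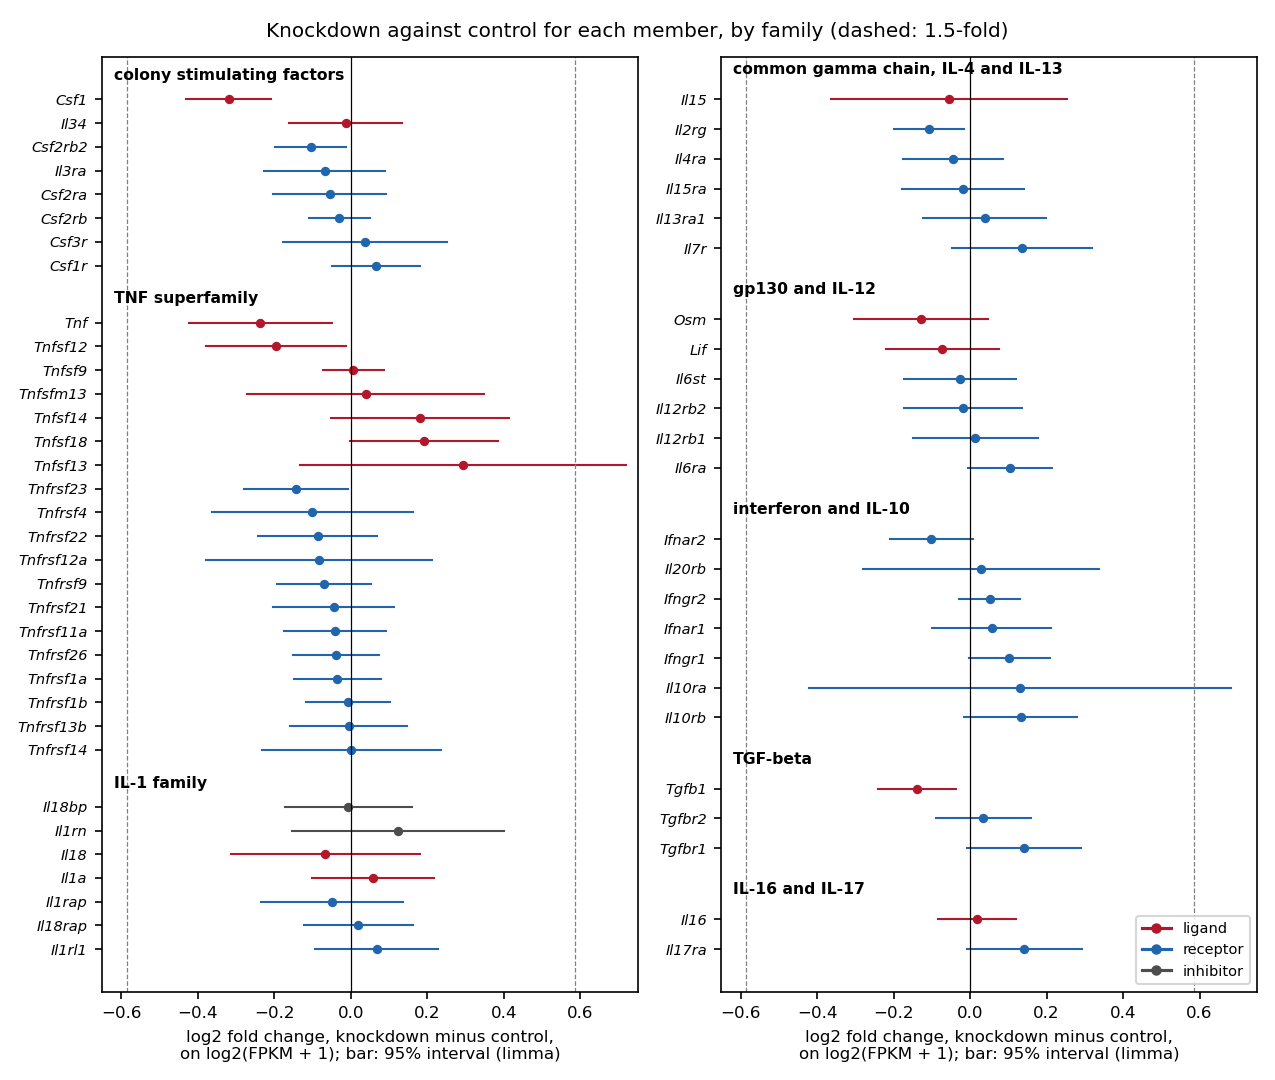
Log2 fold change of each member on log2(FPKM + 1), knockdown minus control, with its 95% interval from limma, by family, with ligands in red, receptor chains in blue and inhibitors in grey. The dashed lines mark 1.5-fold, which only the intervals of Tnfsf13 and Il10ra cross, and Csf1 lies farthest below 0.

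The fold changes of the ligands covered a wider range than those of the receptor chains. Their log2 fold changes ran from -0.32 (Csf1) to 0.29 (Tnfsf13), with 9 of 16 below control and a median of -0.03, while the 40 receptor chains ran from -0.14 (Tnfrsf23) to 0.14 (Il17ra), with 22 below and a median of -0.01. The median of the ligands was -0.05, -0.003 and -0.02 in knockdown libraries 1, 2 and 3 (log2 difference from the control mean of each gene), and that of receptors and inhibitors 0.03, -0.05 and 0.01. The interval of the fold change lay within 1.25-fold for 8 of 16 ligands (50%), against 36 of 40 receptor chains (90%). After knockdown the median coefficient of variation was 9.0% for ligands and 5.34% for receptor chains, but in the controls 6.14% and 6.39%. Tnfsf13, at the upper end, had an SE of 0.18. The part of this spread in the wider range of the ligands was not tested.

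**Figure D3:**
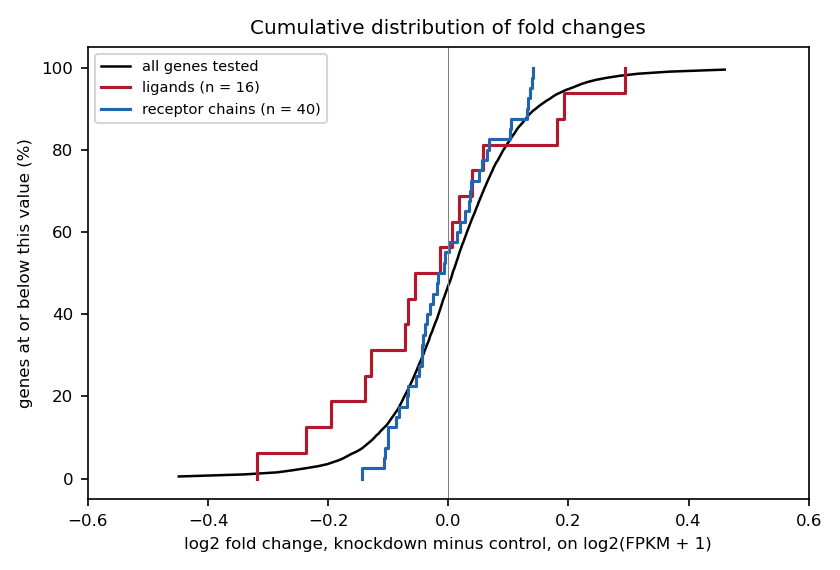
Cumulative share of genes at or below each log2 fold change (knockdown minus control, on log2(FPKM + 1)) for the 16 ligands, the 40 receptor chains and all genes tested, drawn between their percentiles 0.5 and 99.5. The ligand curve reaches from -0.32 to 0.29, and the receptor curve lies between -0.14 and 0.14.

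Csf1, the macrophage growth factor that also maintains microglia, was at 44.1, 41.6 and 39.6 FPKM in control and 32.3, 33.8 and 33.7 FPKM with the knockdown. The knockdown libraries lay close together, and the highest of them was 33.8 FPKM against a lowest control of 39.6 FPKM. The mean was 79.6% of control, a log2 fold change of -0.32 (SE 0.05, 95% interval -0.43 to -0.21) with a limma BH adjusted p of 0.156. The two-sided exact permutation test over the 6 libraries gave p = 0.1, the smallest that 3 against 3 allows. Any gene whose groups do not overlap gets this value, so the test adds nothing to the separation described above. Only 1.2% of all genes tested had a lower fold change. Csf1 (ENSMUSG00000014599; GRCm38 chromosome 3, 107741048 to 107760469, minus strand) kept its direction in each of the 14 alternative settings, between -0.36 and -0.28 when 1 library was left out, and its adjusted p ranged from 0.127 to 0.392.

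Tnf, the founding member of its superfamily and a central inflammatory cytokine of macrophages, was the most abundant member. Its level was 62.6, 62.7 and 58.8 FPKM in control against 47.0, 50.6 and 58.8 FPKM with the knockdown. The groups did not overlap, but only just: knockdown library 3 (58.78 FPKM) was almost level with control 3 (58.81 FPKM), while the other knockdown libraries were well below. The mean was 85.0% of control, log2 -0.24 (SE 0.08, 95% interval -0.42 to -0.05; adjusted p = 0.366), and with 1 library left out the log2 fold change ranged from -0.32 (without knockdown library 3) to -0.17 (without knockdown library 1). Tnf lies on chromosome 17, 35199381 to 35202007, minus strand.

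The upstream sequences of Csf1 and Tnf are shown because these were the ligands lowest relative to control and both are textbook targets of NF-kB. They are the 250 bases before the start site given by RefSeq (GRCm38.p6), 5′ to 3′ on the strand of the gene; capitals mark a kappa-B match (GGG, any 2 bases, TTTCC, on either strand) in Csf1 and the TATA box letters TATAAA in Tnf.
Csf1, chr3:107760470-107760719, minus strand: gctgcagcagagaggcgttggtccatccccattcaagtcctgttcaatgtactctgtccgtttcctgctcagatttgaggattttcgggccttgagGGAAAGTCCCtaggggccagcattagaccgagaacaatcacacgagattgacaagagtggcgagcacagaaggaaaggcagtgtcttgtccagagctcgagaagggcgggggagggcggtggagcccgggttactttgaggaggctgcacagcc
Tnf, chr17:35202008-35202257, minus strand: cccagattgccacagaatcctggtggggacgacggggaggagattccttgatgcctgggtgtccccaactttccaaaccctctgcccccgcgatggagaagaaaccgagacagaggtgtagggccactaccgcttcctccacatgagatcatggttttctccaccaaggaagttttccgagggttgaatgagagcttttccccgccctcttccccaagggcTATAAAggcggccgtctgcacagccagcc
In Csf1 the kappa-B match runs from -154 to -145, and in Tnf the TATAAA runs from -29 to -24. The Tnf window holds no kappa-B match by these letters, which says nothing about binding there.

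RefSeq promoters (250 bases before to 50 after the start) were found for 45 of the 58 members. The kappa-B letters were in 6 of the 45 (13.3%), against 1.86% of 17492 protein-coding genes with a promoter in the same table. Beside Csf1 these were Tnfrsf9 (4-1BB), Il16, Ifngr2, Il1rn and Il4ra. Their log2 fold changes were -0.07, 0.02, 0.05, 0.12 and -0.04 in that order, so holders of the match were found on both sides of control. In Il4ra the match lies after the start and is not shown. Il1rn has several starts in the table, and its 1 site lies before one start and after another. Il16 also has more than 1 start, and its kappa-B match and the AP-1 match named below lie near different starts. The sites of Tnfrsf9, Il16 and Il1rn lie inside the GENCODE bounds of their genes, before an internal start. The sites of Tnfrsf9, Il16, Ifngr2 and Il1rn are printed with 15 bases on each side and the match in capitals, on the strand of the gene.
Tnfrsf9, chr4:150927941-150927980, plus strand: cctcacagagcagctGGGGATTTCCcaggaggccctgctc
Il16, chr7:83655520-83655559, minus strand: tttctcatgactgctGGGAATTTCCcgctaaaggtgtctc
Ifngr2, chr16:91546969-91547008, plus strand: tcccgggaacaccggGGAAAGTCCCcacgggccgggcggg
Il1rn, chr2:24345305-24345344, plus strand: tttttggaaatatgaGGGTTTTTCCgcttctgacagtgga
The Csf1 and Ifngr2 sites share the same 10 letters, and Ifngr2 was at 103.7% of control. An AP-1 match (TGANTCA, either strand) was in 8 of 45 members (17.8%, against 8.12% of coding genes), namely Il15ra, Il16, Il1a, Il1rn, Lif, Tnfrsf9, Tnfsf13 and Tnfsf14. An interferon response element (GAAA, any 2 bases, GAAA) was in 3 (6.67%, against 3.94%), and the PU.1 letters GAGGAAGT in 3 (6.67%, against 3.64%). TATAAA was in 6 members (13.3%, against 14.8%). A match is a description of the letters and no evidence of a used site.

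Tgfb1, the TGF-beta ligand that microglia both make and respond to, was at 39.0, 38.5 and 41.1 FPKM in control against 35.9, 34.5 and 37.0 FPKM with the knockdown. The groups did not overlap, by a gap between 37.0 and 38.5 FPKM. The mean was 90.6% of control, log2 -0.14 (SE 0.04, 95% interval -0.24 to -0.04; limma BH adjusted p = 0.349). Its receptors were at the other side of control: Tgfbr1, the type I kinase, was at 6.18, 6.02 and 5.39 FPKM in control against 6.68, 6.77 and 6.21 FPKM with the knockdown. That is 111.8% of control, log2 0.14 (95% interval -0.01 to 0.29; adjusted p = 0.472), with no overlap. Tgfbr2, the type II kinase that binds the ligand first, was at 102.7% of control (log2 0.03, SE 0.05), and its groups overlapped.

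Tnfsf12, which encodes TWEAK, was at 17.3, 16.7 and 15.4 FPKM in control against 15.9, 13.0 and 14.0 FPKM with the knockdown. The groups overlapped through control 3 and knockdown 1. The mean was 86.7% of control, log2 -0.20 (SE 0.08; limma BH adjusted p = 0.41). Its receptor Tnfrsf12a (Fn14) was more variable, at 15.1, 13.1 and 13.0 FPKM in control against 10.5, 15.1 and 13.4 FPKM with the knockdown (log2 -0.08, SE 0.13). Tnfsf12 and its neighbour Tnfsf13, which encodes APRIL, both share exons on the same strand with the fusion gene Tnfsfm13 (chromosome 11, 69682577 to 69696098), so the division of reads among these 3 genes is uncertain. Tnfsf13 was at 1.82, 2.76 and 1.71 FPKM in control against 3.78, 2.47 and 2.19 FPKM with the knockdown. Its mean was 134.1% of control with overlapping groups (log2 0.29, SE 0.18; adjusted p = 0.56). Tnfsfm13 was at 10.88, 9.605 and 10.54 FPKM in control against 8.96, 13.42 and 9.97 FPKM with the knockdown (104.3% of control, log2 0.04, SE 0.13). Its highest value was in knockdown 2, the library in which Tnfsf12 was lowest. Whether these values are linked was not tested.

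The 3 other TNF superfamily ligands had means above control with overlapping groups. Tnfsf9, at 47.2, 45.8 and 45.9 FPKM in control against 47.2, 46.4 and 45.9 FPKM with the knockdown, was among the steadiest members (log2 0.01, 95% interval -0.07 to 0.09). Tnfsf14 (LIGHT) was at 121.6% of control, from 1.44 ± 0.32 to 1.75 ± 0.10 FPKM (SD, n = 3 each), with overlapping groups. Tnfsf18 (GITR ligand) was at 0.571, 0.777 and 0.590 FPKM in control against 1.03, 0.754 and 0.864 FPKM with the knockdown. At 136.3% of control (log2 0.19, SE 0.08; limma BH adjusted p = 0.447) it was the member with the highest ratio, but control 2 exceeded knockdown 2 and its mean coverage was only 3.51-fold in the controls. Of all 7 ligands of the superfamily, Tnf and Tnfsf12 were the 2 below control.

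**Figure D4:**
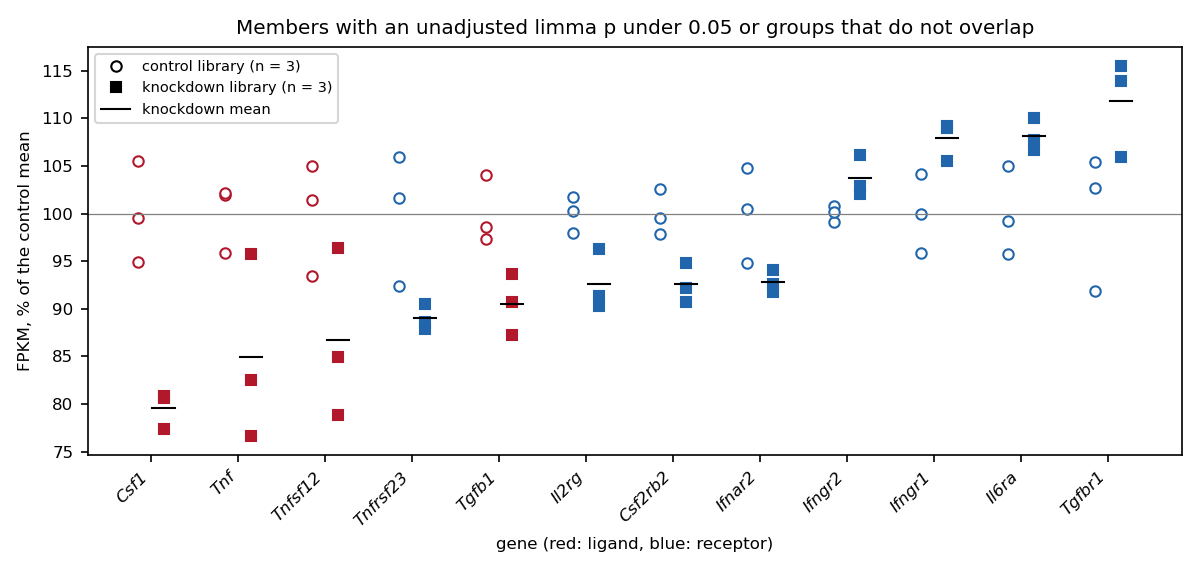
FPKM of each library as a percentage of the gene's control mean, for the 12 members with an unadjusted limma p under 0.05 or with groups that do not overlap; circles are controls, squares knockdown libraries, the short line their mean, red ligands and blue receptor chains. Csf1 shows the widest gap between the groups, at 79.6% of control, and the Tnf and Tnfsf12 libraries are spread the most after knockdown.

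Of the 12 TNF receptor superfamily genes, 11 were below control on log2(FPKM + 1), against 47% of all genes tested, and 0 passed the test. The lowest log2 fold change was -0.14 and the median -0.04. The exception was Tnfrsf14, at log2 0.002, although its mean FPKM was just below control. All 12 were below control with median-of-ratios scaling, but only 7 of 12 without knockdown library 2. With the trend of GC content and length removed, 9 of 12 were. The lowest on log2(FPKM + 1) was Tnfrsf23, a decoy receptor for TRAIL, at 6.92, 7.21 and 6.29 FPKM in control against 6.03, 6.16 and 5.98 FPKM with the knockdown. Its groups did not overlap, and the mean was 89.0% of control (log2 -0.14, SE 0.06; limma BH adjusted p = 0.417). Its neighbours in the cluster on chromosome 7 (143607659 to 143685872), the decoy receptor Tnfrsf22 and the orphan receptor Tnfrsf26, were at log2 fold changes of -0.09 and -0.04. These genes are close relatives, so reads could be divided between them, and Tnfrsf23 and Tnfrsf26 overlap an antisense gene. Whether counting used strand is not given in the sources used here. Other members that overlap antisense genes are Csf1r, Tnfsf9, Il6ra, Tnfsf13, Tnfsfm13, Il16, Il12rb2, Il4ra, Il1a, Il18bp, Il3ra, Il34 and Il1rap. The same limit holds for them. Tnfrsf1b and Tnfrsf1a were at 99.6% and 97.6% of control, with 95% intervals of -0.12 to 0.10 and -0.15 to 0.08. Tnfrsf9, the receptor of Tnfsf9, was at 95.04% (log2 -0.07, SE 0.05), and Tnfrsf14, a receptor of LIGHT, at 99.6% (95% interval -0.23 to 0.24). Tnfrsf13b (TACI), a receptor for APRIL, was at 99.4% (95% interval -0.16 to 0.15). Tnfrsf11a (RANK), Tnfrsf21 (DR6) and Tnfrsf4 (OX40) were at 96.8%, 95.3% and 88.2%, the last with the lowest ratio of the family, at about 1 FPKM and with overlapping groups.

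In the colony stimulating factor family the receptor chains had smaller log2 fold changes than Csf1, between -0.10 and 0.07. Csf1r was at 53.8, 48.8 and 54.8 FPKM after knockdown, on both sides of its controls, which is 104.8% of control (log2 0.07, 95% interval -0.05 to 0.18). Il34 was at 1.08, 1.16 and 1.05 FPKM in control against 0.990, 1.19 and 1.06 FPKM with the knockdown (log2 -0.01, SE 0.06). The GM-CSF receptor chains Csf2ra and Csf2rb were at 96.1% and 97.9% of control with overlapping groups. Csf2rb2, the mouse-specific second beta chain that serves IL-3, was at 17.6, 18.5 and 17.9 FPKM in control against 16.6, 17.1 and 16.3 FPKM with the knockdown. Its groups did not overlap, at 92.6% of control (log2 -0.10, SE 0.04; limma BH adjusted p = 0.391). Csf2rb and Csf2rb2 are close paralogs 20030 bases apart on chromosome 15, so the division of reads between them is uncertain. Il3ra and Csf3r, the receptors for IL-3 and G-CSF, were at 92.1% and 102.7%. With the GC and length trend removed, Csf2rb2 was at -0.08 and the family median moved from -0.04 to -0.01.

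Il2rg, the common gamma chain of the receptors for IL-2, IL-4, IL-7, IL-15 and IL-21, was at 40.6, 40.01 and 39.1 FPKM in control against 36.0, 36.5 and 38.4 FPKM with the knockdown. The groups did not overlap, with knockdown 3 nearest to the controls, and the mean was 92.6% of control (log2 -0.11, SE 0.04; limma BH adjusted p = 0.384). Il2rg shares exons on its own strand with the gene model Gm20489, so its reads may be divided. Its partners did not share a direction: Il7r was at 110.7% of control (16.6 ± 1.0 to 18.4 ± 1.8 FPKM; SD, n = 3 each), Il4ra at 95.9% and Il15ra at 97.7%. Il13ra1, which pairs with the IL-4 receptor alpha chain, was at 102.6%. Il15, the one gamma-chain ligand in the table, was at 3.26 ± 0.64 FPKM in control against 3.09 ± 0.51 FPKM with the knockdown. Jak3, the kinase that binds the common gamma chain and no member of the list by name, was at 6.48, 6.42 and 6.82 FPKM in control against 4.87, 4.64 and 4.90 FPKM with the knockdown. At 73.1% of control (log2 -0.38, SE 0.05) it had a limma BH adjusted p of 0.107 and did not pass.

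The interferon and IL-10 receptor chains, of the class II cytokine receptor family, were mostly above control, and 0 passed the test. Of the 7 chains 6 were above, against 6476 of all 12222 genes tested. Their median log2 fold change was 0.06, against 0.01 for all genes. Ifngr1, the ligand-binding chain for interferon gamma, was at 12.4, 13.5 and 12.9 FPKM in control against 13.7, 14.1 and 14.1 FPKM with the knockdown (107.9% of control, limma BH adjusted p = 0.46). Ifngr2, its partner chain, was at 35.0, 35.6 and 35.4 FPKM and then 36.4, 36.1 and 37.5 FPKM (103.7%, adjusted p = 0.592). In both genes the groups did not overlap, although the gaps were narrow, from 13.48 to 13.65 FPKM for Ifngr1 and from 35.6 to 36.1 FPKM for Ifngr2. The chains of the type I interferon receptor lay on opposite sides: Ifnar1 at 104.5% of control with overlapping groups and Ifnar2 at 92.8% without overlap (17.2 ± 0.86 to 15.95 ± 0.21 FPKM; SD, n = 3 each). Ifnar2, Il10rb, Ifnar1 and Ifngr2 follow one another on chromosome 16 between 91372783 and 91565623, with log2 fold changes of -0.10, 0.13, 0.06 and 0.05. These neighbours lay on both sides of control. Ifnar2 and Il10rb both share exons on the same strand with the gene model Gm21970, which could take reads from either. Il10ra, the ligand-binding chain for IL-10, was at 6.31, 5.84 and 3.55 FPKM in control against 7.16, 6.39 and 3.96 FPKM with the knockdown. Library 3 was the lowest of both groups, and the spread within groups was larger than the difference of the means (111.5% of control, log2 0.13, SE 0.23). Il20rb, a chain of the IL-20 receptors, was at 0.705 ± 0.258 FPKM in control against 0.731 ± 0.193 FPKM with the knockdown (SD, n = 3 each).

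Of the 6 genes of the gp130 and IL-12 group, 4 were below control, against 47% of all genes tested, and 0 passed the test. Il6st encodes gp130, the chain through which the receptors of IL-6, LIF and oncostatin M signal. Il6ra, the IL-6 receptor, was at 10.6, 10.3 and 11.2 FPKM in control against 11.8, 11.4 and 11.5 FPKM with the knockdown, without overlap (108.1% of control, log2 0.10, SE 0.05; limma BH adjusted p = 0.467). Il6st was at 97.9% of control with overlapping groups. Osm, the oncostatin M ligand, was at 11.7, 12.1 and 11.9 FPKM in control against 9.52, 11.3 and 11.7 FPKM with the knockdown, of which knockdown 1 was the lowest and knockdown 3 lay among the controls (log2 -0.13, SE 0.07). Lif was at 0.587 ± 0.069 and 0.508 ± 0.034 FPKM (SD, n = 3 each), near the lower limit of the table and at 86.6% of control with overlapping groups. Il12rb1 and Il12rb2, the IL-12 receptor chains, were at 101.4% and 98.5%.

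In the IL-1 family, all 7 measured genes had overlapping groups. Il1rn, the receptor antagonist, was at 7.12, 7.75 and 5.68 FPKM in control against 6.60, 8.43 and 7.57 FPKM with the knockdown (log2 0.12, SE 0.12). Il1a was at 106.3% of control and Il18 at 94.2%, with Il18bp, the soluble IL-18 binding protein, at 98.9%. The receptor chains Il1rap, Il1rl1 (ST2) and Il18rap were at 92.1%, 107.8% and 102.1%, each at about 2 FPKM or less. Il17ra, the common IL-17 receptor chain, was at 8.56, 8.49 and 8.95 FPKM in control against 10.5, 8.87 and 9.71 FPKM with the knockdown, where knockdown 2 lay below control 3 (111.7% of control, log2 0.14, SE 0.06; limma BH adjusted p = 0.468). Il16 was at 101.4%, with a 95% interval of -0.08 to 0.12.

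Set side by side, the 15 measured pairs of a ligand with a receptor chain or, for Il18, its binding protein held 0 genes that passed the test. Csf1 at log2 -0.32 stood beside Csf1r at 0.07, Tnf at -0.24 beside Tnfrsf1a at -0.03 and Tnfrsf1b at -0.01, and Tgfb1 at -0.14 beside Tgfbr1 at 0.14 and Tgfbr2 at 0.03. Whether ligand and receptor differ in their response was not tested.

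Among other genes of these pathways, taken from lists set by function, 0 of 91 tested passed. Beside the counts below control that follow, the share over all genes tested was 47%. The JAK, STAT and SOCS list had 12 of 21 below (median -0.02 on the log2 scale), with Jak3 as above and the STAT gene Stat5b at 0.11. All 4 measured TNF superfamily genes with other names were below control (median -0.11), among them the costimulatory receptor Cd40 at 4.61 and 4.02 FPKM (log2 -0.16, SE 0.06) and Relt at -0.15. Of 19 TNF receptor adaptors 9 were below, with the death domain adaptor Tradd at 0.11 and the kinase Ripk1 at -0.26. Of 10 IL-1 receptor adaptors 4 were below, with the kinase Irak4 at 0.18 and Irak3, an inhibitor of the pathway, at -0.16. The 18 TGF-beta effectors had 11 below, with the SMAD corepressor Ski at -0.11 and Smad4 at 0.09. Of 7 other cytokine genes 4 were below, with Ebi3, the shared subunit of IL-27 and IL-35, at 15.3 and 13.3 FPKM (log2 -0.20, SE 0.04) and Crlf2, the TSLP receptor chain, at -0.10. In cytokine processing 6 of 12 were below, with Zfp36, which destabilises cytokine messenger RNA, at -0.18 and the inflammasome gene Nlrp1b at 0.17. The limma BH adjusted p of the named genes in this paragraph ranged from 0.107 to 0.538.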

How the data were processed

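Per the labels' protocols, total RNA of BV2 cells was depleted of ribosomal RNA, made into stranded libraries and sequenced on an Illumina NovaSeq instrument. The authors deposited 1 table of expression values for 6 libraries, treated here as FPKM, a unit that is inferred. In genes with 1 transcript, 60.7% to 78.2% of values times transcript length, depending on the library, came to a whole step to within 0.1. Chance gives 20% for a step fixed beforehand, but this step was fitted to part of the same values. Such steps show scaling by length and do not tell FPKM from another unit scaled in that way. Per the submitters' processing notes, the authors used HISAT2, StringTie and edgeR with the build hg38, although all gene IDs are mouse Ensembl IDs; which annotation and strand option they used is not given in the sources used here. Symbols and coordinates are from GENCODE M21 (GRCm38), with 47 of the 58 member IDs matching by version. Depth (in Gb) was estimated from those steps and holds only if the unit is FPKM.

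Genes with at least 0.5 FPKM in at least 3 of 6 libraries (12222 genes) were tested on log2(FPKM + 1) with limma 3.58.1 (R 4.3.3; empirical Bayes with trend, no covariate), with BH adjustment over all of them and a threshold of 0.05. All 58 members passed this filter. Members and lists were chosen with earlier results of these data known. Genes are named by rule: Gch1, the 8 members of smallest unadjusted p in each direction, the 8 most abundant members, 12 genes listed by symbol, and measured ligand and receptor pairs, and of each other list the 2 genes of smallest p; other members are given briefly, to account for each. The 14 alternatives were a replicate block, leaving out each library, pseudocounts of 0.5 and 0.1, a filter at a mean of 5 FPKM, no filter, quantile normalization, median-of-ratios scaling and removal of the trend with GC content and length.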

Additional observations from a re-analysis of the deposited data

How the results depend on the processing

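In none of the 14 alternatives did a member pass the test, and the smallest adjusted p was 0.127. Of the 58 members, 34 kept their sign in every alternative that held them and 24 changed it at least once. With the replicate block, 0 genes of the whole table passed, against 10 without it, and Gch1 had an adjusted p of 0.0604 by limma with the same log2 fold change of -0.96. In the other 13 alternatives Gch1 passed, with an adjusted p of 0.00265 to 0.0291. The samples of the same number deviated together only weakly (r of 0.095, 0.0593 and 0.0936), although each correlated best with its own number, and the labels do not pair them. With the trend of GC content and length removed, 6 genes of the table passed, and with 1 library left out 6 to 18. The members whose groups did not overlap numbered 11, and 14 to 22 with 1 library left out, where fewer libraries separate more easily. The highest count was without knockdown library 2. With all 6 libraries, 8.36% of all genes were lower and 9.99% higher without overlap. The share over all genes with 1 library left out is not given here, so the larger counts are no result about the members. Under the filter at a mean of 5 FPKM, 37 members were left, of which 19 were below control and 36 had an interval within 1.5-fold. The number of members below control was 27 to 35 in the alternatives that held all members, and their median ranged from -0.03 to 0.01, above 0 without knockdown library 2. The cause of these differences was not tested.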
